A study of Mus musculus with 27 samples.

Results

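Chemokines are small secreted proteins that attract leukocytes along a gradient. A list of 10 of them was followed across 3 mouse cell systems: Ccl2, Ccl7, Ccl20, Ccl25, Cxcl1, Cxcl2, Cxcl5, Cxcl10, Cxcl16 and Cx3cl1. All 10 were found among the 22524 genes of the count tables. RNA was sequenced from 27 libraries. Jejunal epithelial organoids, grown in Matrigel from crypts of 9 C57BL/6J males, came from 3 cohoused littermates of each of the specific pathogen-free (SPF) facilities SR and SE and from 3 germ-free (GF) mice, so that facility and litter cannot be told apart. The second system was m-ICc12, an immortalised mouse small-intestinal epithelial line (3 cultures), and the third was mouse embryonic fibroblasts (MEFs) of C57BL/6 background (3 cultures). Each organoid and m-ICc12 culture gave 1 library labelled untreated, for which the medium was exchanged, and 1 labelled as given TNF at 5 ng/mL for 8 h, and MEFs gave untreated libraries only.

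The treatment on the sample label and the treatment in the name of the deposited count table were opposite in 12 of 12 pairs of libraries. The labels were followed here, and groups are called "labelled untreated" and "labelled TNF-treated". In each pair the library labelled untreated is therefore the one whose table is named as treated. Exchanging the libraries within each pair turns the sign of every difference between the labels and leaves its size as it is. Nfkbia, which encodes the inhibitor IκBα and is itself a TNF-induced NF-κB target, averaged 196 CPM (counts scaled to a library of 1000000 counts, after TMM normalization) in organoid libraries labelled untreated and 31.1 in those labelled TNF-treated, which goes against the labels. Every direction given below between labels carries this conflict. So do the levels given for each label and the comparisons with MEFs, which had untreated libraries only. If the names of the count tables hold, the untreated organoid and m-ICc12 libraries are those labelled TNF-treated. The comparison of untreated cells with MEFs is then the one given with the TNF label.

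Total counts ranged from 6071103 to 43843615 per library, both in m-ICc12, and 3 counts, used as the detection floor, corresponded to between 0.0657 and 0.523 CPM. The epithelial markers Epcam and Cdh1 averaged 989 and 997 CPM in the 18 organoid libraries. In m-ICc12, libraries labelled untreated held 4.37 CPM of Epcam and 1.502 of Cdh1 on average, although Krt8 averaged 1387, and Vim, a mesenchymal filament gene, averaged 2516. Epcam and Cdh1 in m-ICc12 were thus far below the level seen in organoids. Of 7 epithelial markers, 5 were higher in organoids than in m-ICc12 and 1 lower by edgeR, with the untreated label. Against MEFs, 4 of the 7 were higher in m-ICc12 and 0 lower. Their sum was 2320 to 2823 CPM in m-ICc12 labelled untreated and 8.79 to 13.3 in MEFs. Vim did not stand for the mesenchymal list. Of its 8 genes, 3 were above the floor in at least 50% of these m-ICc12 libraries, and their sum (1849 to 3009 CPM) was mostly Vim. Of 6 tested against MEFs, 5 were lower in m-ICc12 and 0 higher by edgeR. Col1a1 averaged 2082 CPM in MEFs, where Thy1 was at 0. The summed level of 8 leukocyte markers was 0.815 to 24.6 CPM in organoids and 65.3 to 139 in m-ICc12, where most of it was Csf1r, the receptor of a macrophage growth factor.

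As background, CC and CXC chemokines act through G-protein-coupled receptors on leukocytes. In the small intestine, Ccl25 recruits gut-homing lymphocytes that carry Ccr9, and Ccl20 recruits Ccr6-bearing cells to the epithelium over lymphoid follicles. Cxcl1, Cxcl2 and Cxcl5 attract neutrophils through Cxcr2, Ccl2 and Ccl7 attract monocytes through Ccr2, and Cxcl10 is an interferon-responsive ligand of Cxcr3. Cxcl16 and Cx3cl1 are made as membrane-anchored proteins that the proteases Adam10 and Adam17 can release. Several of these genes are known NF-κB targets.

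Promoter sequence is shown for Ccl20 and Cxcl1, which differed between the labels below, for Cxcl2 and Cxcl10, which held the same motif, and for Cx3cl1, which did not pass that test. RefSeq windows (GRCm38.p6) were found for 6 of the 10 members, in 7 windows of 300 bases, and each of the next lines gives the 250 bases before the start in RefSeq, 5′ to 3′ on the gene's strand. Capitals mark a match, on either strand, to the 10-base NF-κB consensus or, at the far 5′ side of Cxcl10, to the interferon-response core (GAAA, any 2 bases, GAAA), and TATAAA in Cx3cl1.
Ccl20 (chr1:83116516-83116765, + strand): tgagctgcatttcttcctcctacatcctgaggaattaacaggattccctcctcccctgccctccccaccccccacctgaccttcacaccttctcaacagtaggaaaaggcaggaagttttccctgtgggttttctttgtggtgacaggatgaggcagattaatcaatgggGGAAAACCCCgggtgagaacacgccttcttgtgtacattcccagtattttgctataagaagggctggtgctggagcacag
Cxcl1 (chr5:90890995-90891244, + strand): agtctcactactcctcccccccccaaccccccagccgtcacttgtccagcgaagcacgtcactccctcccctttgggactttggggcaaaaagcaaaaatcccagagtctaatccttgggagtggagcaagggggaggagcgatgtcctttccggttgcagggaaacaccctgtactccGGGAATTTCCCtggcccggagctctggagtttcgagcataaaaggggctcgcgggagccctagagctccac
Cxcl2 (chr5:90903649-90903898, + strand): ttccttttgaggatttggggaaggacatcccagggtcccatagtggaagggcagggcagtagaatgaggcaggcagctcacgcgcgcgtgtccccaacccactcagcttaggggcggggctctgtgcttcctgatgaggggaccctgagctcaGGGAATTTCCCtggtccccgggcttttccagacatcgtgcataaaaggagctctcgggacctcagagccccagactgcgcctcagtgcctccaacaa
Cxcl10 (chr5:92348890-92349139, - strand): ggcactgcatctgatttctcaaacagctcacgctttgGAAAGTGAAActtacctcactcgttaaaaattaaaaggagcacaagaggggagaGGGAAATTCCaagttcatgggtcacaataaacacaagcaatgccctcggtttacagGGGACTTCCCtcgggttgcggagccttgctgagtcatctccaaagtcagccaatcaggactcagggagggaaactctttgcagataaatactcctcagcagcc
Cx3cl1 (chr8:94771930-94772179, + strand): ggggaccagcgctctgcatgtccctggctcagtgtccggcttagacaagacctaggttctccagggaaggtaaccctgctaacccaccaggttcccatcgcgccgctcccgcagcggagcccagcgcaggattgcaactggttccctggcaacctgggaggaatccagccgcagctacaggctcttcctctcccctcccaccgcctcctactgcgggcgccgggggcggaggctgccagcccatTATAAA
The match in Ccl20 began 80 bases before the start, on the opposite strand. Cxcl1 and Cxcl2 held the same run, GGGAATTTCCC, beginning 71 and 97 bases before the start, in which a match on each strand overlapped the other. Cxcl10 held NF-κB matches 159 and 103 bases before its start, and the interferon-response core 213 bases before. The share of 32851 mouse windows of the same length with a match was 4.51% for the NF-κB consensus, 3.44% for the interferon-response core and 13.6% for TATAAA. The last of these began 6 bases before the start of Cx3cl1 and 16 bases before 1 of the starts of Ccl25. The windows of Ccl25 and Cx3cl1 held no NF-κB match. Ccl2, Ccl7, Cxcl5 and Cxcl16 had no window, so their promoters were not seen. A match says only that these letters are present. Cxcl5, Cxcl1, Cxcl2 and Cxcl10 lie in this order on chromosome 5, with 10755 bases between Cxcl1 and Cxcl2, and Ccl2 and Ccl7 are neighbours on chromosome 11, 8258 bases apart. In the Ensembl annotation of GRCm38, Ccl2 spans chr11:82035571-82037453, Ccl7 chr11:82045712-82047525, Cxcl5 chr5:90759360-90761624, Ccl25 chr8:4325210-4360020 (all on the + strand) and Cxcl16 chr11:70453983-70459984 (- strand).

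Ccl25 led in organoids, also per kb of exon (given below), with 303, 387 and 453 CPM as the lowest, median and highest of the 9 libraries labelled untreated. It held 1.93, 5.67 and 3.99 CPM in m-ICc12 libraries with that label and 3.06, 2.69 and 2.15 in MEFs. Organoids labelled untreated also had Cx3cl1 (36.4, 64.2 and 85.8 CPM in the same order), Cxcl16 (8.68 to 46.3, median 24.3) and Ccl20 (2.33 to 24.6, median 9.55). The remaining 6 members did not exceed 2.82 CPM in any organoid library. The spread between organoid cultures was narrow for Ccl25, with a coefficient of variation of 13.9%, and wide for Ccl20 (53.3%) and Cxcl16 (54.9%).

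In m-ICc12 libraries labelled untreated, Cxcl1 stood at 94.2, 85.2 and 71.5 CPM and Ccl2 at 66.4, 61.0 and 63.5. Cxcl5, another neutrophil attractant, reached 10.4, 12.5 and 13.8 CPM, and Cxcl2 reached 1.93, 3.31 and 5.22. MEFs had Ccl2 at 17.0, 15.5 and 17.6 CPM, Cxcl10 at 18.6, 13.8 and 9.90, and Ccl7 at 5.53, 4.28 and 9.24. Ccl7 counts came mostly from MEFs, with 644 counts in the 3 MEF libraries, 26 counts in 3 m-ICc12 libraries labelled untreated, none in those labelled TNF-treated and 2 counts in all 18 organoid libraries. Cx3cl1 was the only member above 15 CPM in every library of all systems, at 23.1, 23.1 and 18.1 CPM in m-ICc12 labelled untreated and 24.6, 28.01 and 19.1 in MEFs. Bulk libraries cannot tell fewer cells that express a gene from less RNA per cell.

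**Figure D1:**
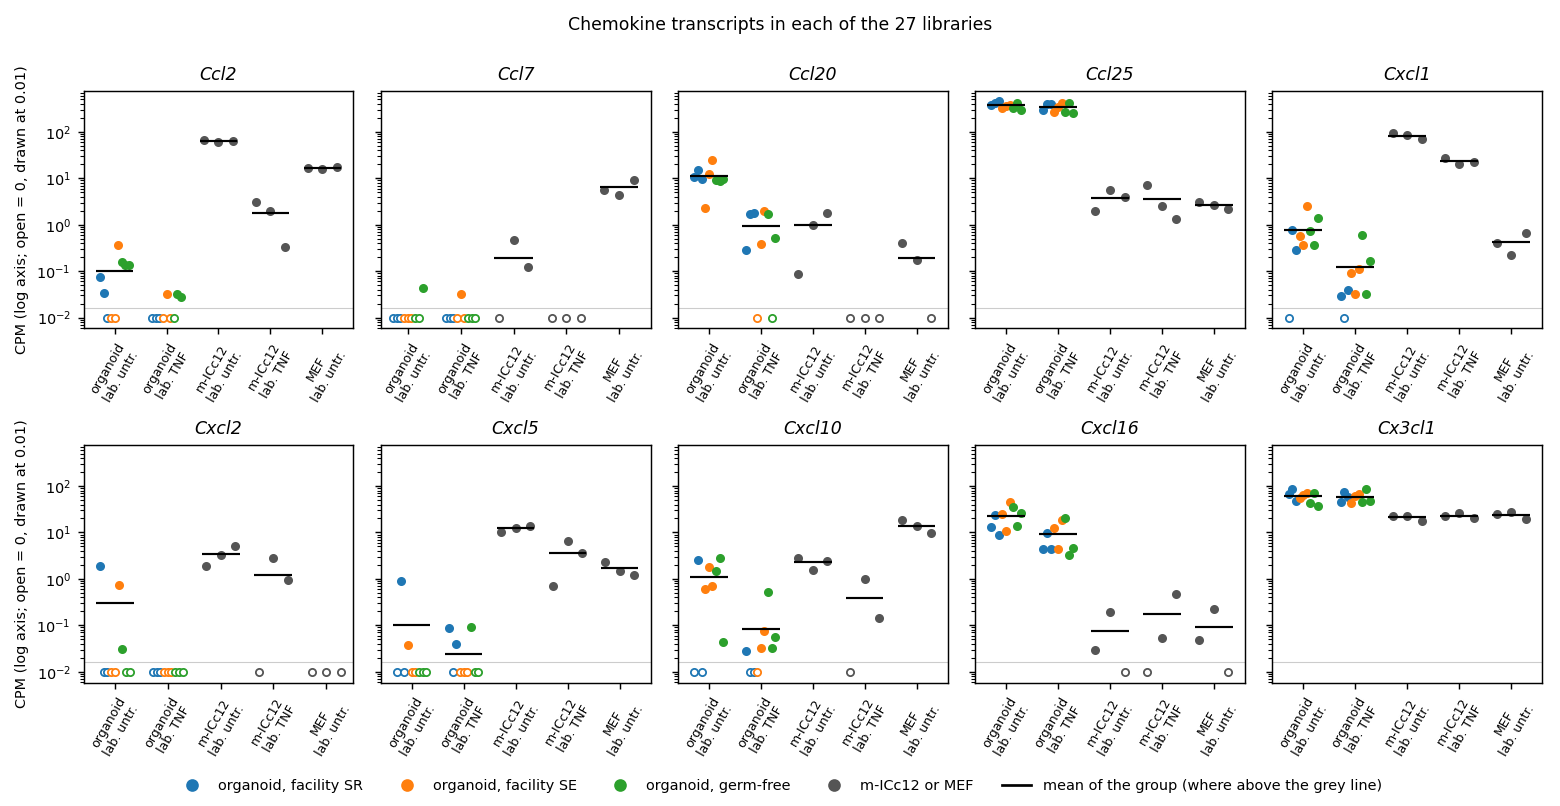
Levels of the 10 chemokines in the 27 libraries, as CPM on a log axis, with 1 point per library, open points for libraries with no count, and bars for group means. Ccl25 sits between 258 and 453 CPM in organoids and below 8 CPM elsewhere, while Ccl2 and Cxcl1 are high in m-ICc12 and differ there between the labels.

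Read per kilobase of exon, which allows genes to be compared within a library, the 10 members summed to 82.9 CPM per kb in organoids labelled untreated (66.5 to 105 over 9 libraries). Ccl25 made up 61.8% of this sum on average, Cx3cl1 18.3%, Ccl20 9.28% and Cxcl16 9.18%. In organoids labelled TNF-treated the sum was 64.7 CPM per kb, and Ccl25 made up 71.1%. The exon union of Ccl25 spans alternative starts, so its level per kb may be understated. The make-up of m-ICc12 was different: with the untreated label the sum was 117 CPM per kb (112 to 123), of which Ccl2 gave 48.0% and Cxcl1 38.1%. With the TNF label the sum was 23.3 (20.6 to 24.9), Cxcl1 gave 54.0%, Cx3cl1 25.3% and Ccl2 6.54%. MEFs had the sum at 36.6 CPM per kb (33.7 to 38.5), shared by Ccl2 (40.2%), Ccl7 (21.5%), Cxcl10 (17.1%) and Cx3cl1 (16.8%).

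**Figure D2:**
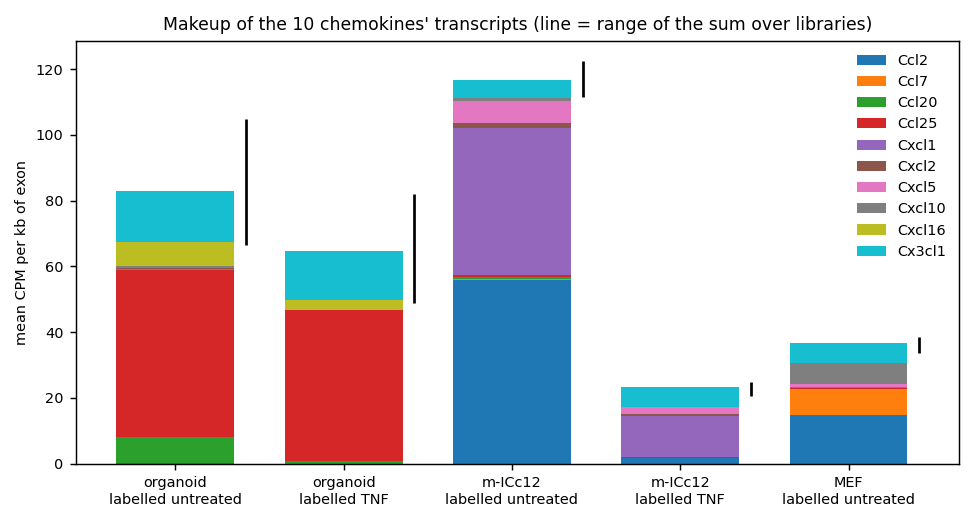
Mean CPM per kb of each chemokine, stacked by cell system and label, with a line for the lowest to highest sum over the group's libraries. The organoid bars are mostly Ccl25, the m-ICc12 bar with the untreated label is mostly Ccl2 and Cxcl1, and the m-ICc12 bar with the TNF label is at 23.3 against 117 CPM per kb.

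The next question was which members differed between the labels within organoids. With 9 libraries per label, edgeR's quasi-likelihood test called 168 of 12104 genes (1.39%) at a Benjamini-Hochberg adjusted p under 0.05, of which 153 (1.26%) were lower in libraries labelled TNF-treated. Of the 6 members abundant enough to be tested, 1 was called, Ccl20, and it was lower with the TNF label. Ccl20 had 2.33, 9.55 and 24.6 CPM as its lowest, median and highest values with the untreated label, and 0, 0.506 and 2.02 with the TNF label. The lowest of the first group thus lay above the highest of the second, as it did for 0.463% of genes tested. The log2 difference was -3.58 (SE 0.61, 95% interval -4.83 to -2.34), an 11.98-fold difference with an adjusted p of 0.000646 by edgeR, and Ccl20 was lower in 9 of 9 cultures, with paired log2 differences between -6.98 and -2.34. The call was kept with each culture left out. Among markers of intestinal lineages, the summed level of 7 genes was also lower with the TNF label in 9 of 9 cultures (median 686 against 1222 CPM). By edgeR 1 of the 7 was called, the stem-cell marker Olfm4 (251 against 885 CPM, log2 difference -1.82, adjusted p 0.000238), while Lgr5 was at 159 against 152. The other 6 were not called, and the median log2 difference of the 7 was -0.029. The lower sum thus does not stand for the list. The part of the Olfm4 difference in the chemokine levels was not tested.

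Cxcl16 followed the same direction in 9 of 9 cultures, by -2.53 to -0.83 on the log2 scale. Its levels were 8.68, 24.3 and 46.3 CPM (lowest, median, highest) with the untreated label and 3.30, 4.58 and 20.1 with the TNF label, so the groups overlapped. Without regard to culture the log2 difference was -1.33 (SE 0.36, interval -2.08 to -0.58) and did not pass, with an edgeR adjusted p of 0.0733. With each culture as a block, the pairing being by animal, it was -1.44 with an adjusted p of 2.74e-06 in edgeR. That fit called 2 members, while all genes called rose from 168 to 397. The annotation places 552 of the exon bases of Cxcl16 (18.3%) on the opposite strand of Zmynd15, and the use of strand in counting is not stated. Zmynd15 did not exceed 2.12 CPM in any organoid library. Ccl25 shares 204 exon bases (2.74%) with Elavl1, and Cxcl10 133 (5.91%) with Art3, also on opposite strands. Elavl1 stood at 127 to 184 CPM in organoids, 88.0 to 113 in m-ICc12 and 140 to 147 in MEFs. Art3 had a median of 0 in organoids and reached 2.53 CPM. The part of such reads in the levels of Ccl25 and Cxcl10 was not tested.

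Cxcl10 and Cxcl1 were near the floor in organoids. Cxcl10 held 0, 0.715 and 2.82 CPM (lowest, median, highest) with the untreated label and 0, 0.0319 and 0.517 with the TNF label, a log2 difference of -3.72 (interval -6.00 to -1.45, edgeR adjusted p 0.126). Cxcl1 held 0, 0.573 and 2.58 CPM against 0, 0.0399 and 0.611, a log2 difference of -2.66 (interval -4.61 to -0.70, edgeR adjusted p 0.288). For both, the highest library with the TNF label was that of GF culture Z917. Without this culture Cxcl10 reached -4.98 with an edgeR adjusted p of 0.0374, and Cxcl16 reached -1.46 with 0.0427. These were the lowest adjusted p of the 9 fits that each left out 1 culture. The highest were 0.355 for Cxcl10 and 0.195 for Cxcl16 by edgeR, and in 8 of the 9 fits each gene stayed uncalled. By the study's thresholds, an unadjusted p up to 0.05 and a log2 difference of at least 0.5, 4 of the 6 members were lower with the TNF label (2.22% of all genes tested were).

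Ccl25 and Cx3cl1, which led the organoid profile, did not pass the test. Ccl25 had 258, 339 and 429 CPM (lowest, median, highest) with the TNF label, against 303, 387 and 453 with the untreated label, and was lower in 8 of 9 cultures. The log2 difference of -0.15 had an interval of -0.37 to 0.07 and an edgeR adjusted p of 0.814. Cx3cl1 spanned 43.7 to 84.5 CPM with the TNF label and 36.4 to 85.8 with the untreated label, lower in 5 cultures and higher in 4, with a log2 difference of -0.04 (interval -0.36 to 0.27). These intervals leave room for a change of at most 0.37 for either gene on the log2 scale.

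**Figure D3:**
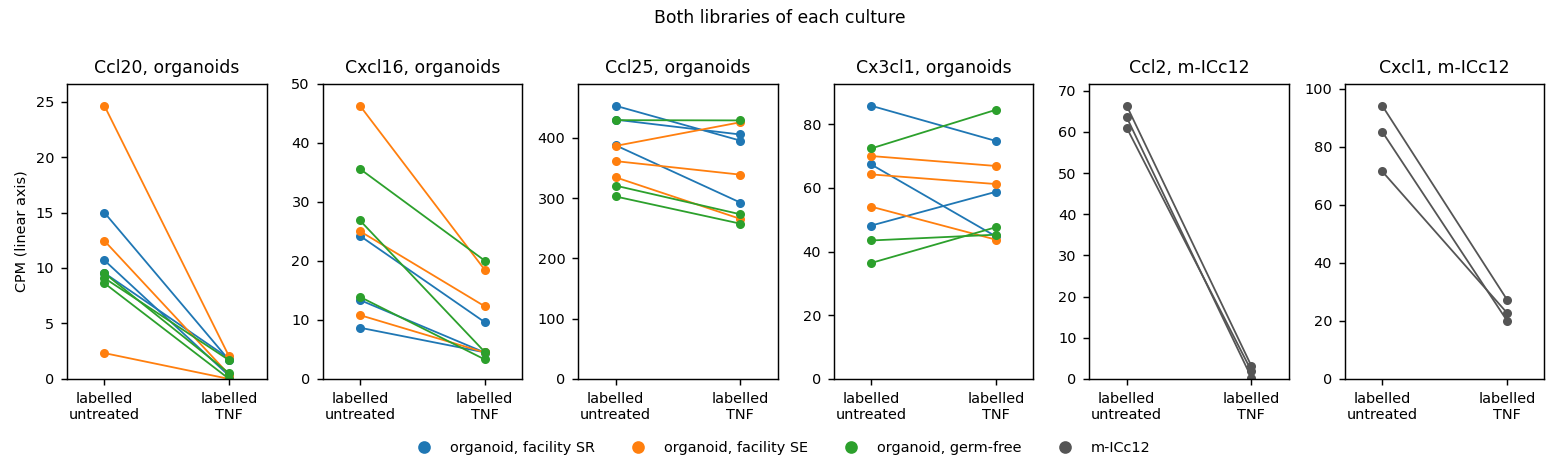
CPM (linear axes) of 4 chemokines in the 9 organoid cultures and of 2 in the 3 m-ICc12 cultures, with a line joining the libraries of a culture from the untreated to the TNF label. Lines for Ccl20 and Cxcl16 fall in 9 of 9 organoid cultures, those for Cx3cl1 go both ways, and those for Ccl2 and Cxcl1 fall in 3 of 3 m-ICc12 cultures. Directions follow the labels, which conflict with the names of the deposited counts.

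The remaining 4 members were too low in organoids to be tested. Cxcl2 had no count under the TNF label and 71 counts in libraries labelled untreated, at least 2.45-fold more, of which 51 lay in SR culture Z908. That library also held the highest summed level of 8 leukocyte markers in organoids, 24.6 CPM against 1.56 to 7.29 in the other libraries with its label, with Itgam at 9.61, Csf1r at 5.81, Tyrobp at 4.73 and Lyz2 at 4.43 CPM, while Ptprc, Cd3e and Adgre1 were at 0. Itgam was not particular to that library, and reached 9.14 CPM in the library of SE culture Z913 labelled TNF-treated. The library of Z913 labelled untreated held 19 of the 71 Cxcl2 counts, with a leukocyte sum of 2.26 CPM. The part of the leukocyte markers in the level of Cxcl2 was not tested. Cxcl5 had 27 counts against 6, a ratio of 4.70 (exact counting interval 1.90 to 13.9), and 26 of the 27 came from SR culture Z909. Ccl2 had 24 counts against 3, a ratio of 8.36 (2.54 to 43.4). These intervals cover counting error only.

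In m-ICc12, with 3 cultures per label, edgeR called 13 of 11861 genes (0.110%) between the labels, and 0.0927% of genes were called lower with the TNF label. Of the 8 members tested, 2 were called, both lower with the TNF label. Ccl2 had 66.4, 61.0 and 63.5 CPM with the untreated label and 3.14, 1.94 and 0.336 with the TNF label. The log2 difference was -5.34 (SE 0.46, interval -6.32 to -4.36), 40.5-fold, with an edgeR adjusted p of 4.78e-05, and it was -4.74 without replicate 3. Cxcl1 had 94.2, 85.2 and 71.5 CPM against 27.4, 20.1 and 22.8. The log2 difference was -1.83 (SE 0.20, interval -2.26 to -1.40), 3.56-fold, with an edgeR adjusted p of 0.000395. This call was lost in a fit of all 27 libraries together (edgeR adjusted p 0.654), in which the organoids also set the spread.

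The other members of m-ICc12 did not pass. Cxcl5 stood at 10.4, 12.5 and 13.8 CPM against 0.697, 6.71 and 3.65, and Cxcl10 at 2.81, 1.55 and 2.43 against 0, 0.997 and 0.144. Both were lower with the TNF label without overlap, as were 5.59% of genes tested, with log2 differences of -1.64 and -2.37 and edgeR adjusted p of 0.872 and 0.996. Cxcl2 had 1.93, 3.31 and 5.22 CPM against 0, 2.75 and 0.961, which overlapped. Ccl20 had 124 counts with the untreated label and none with the TNF label, at least 3.88-fold more. Cx3cl1 had 22.1, 26.3 and 21.0 CPM with the TNF label, a log2 difference of 0.13 (interval -0.40 to 0.66). Ccl25 had 7.14, 2.53 and 1.35 CPM with the TNF label, the highest in the library with the lowest total count of all, and the interval of its log2 difference was -1.68 to 1.47. By the study's thresholds 4 of the 8 members were lower with the TNF label (2.02% of genes tested were).

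**Figure D4:**
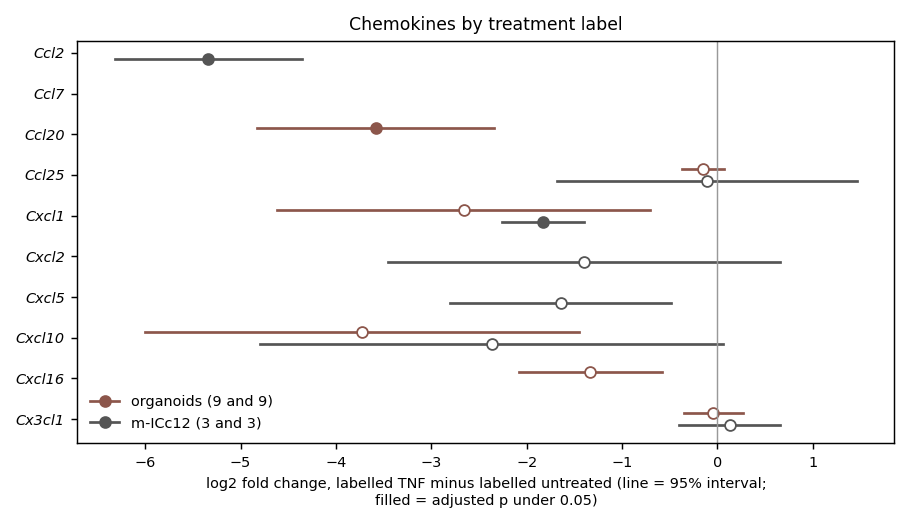
Log2 difference between labels (TNF-treated minus untreated) with 95% intervals, in organoids and in m-ICc12, for members tested in each. The intervals of Ccl20 and Cxcl16 in organoids and of Ccl2 and Cxcl1 in m-ICc12 lie below 0, and those of Ccl25 and Cx3cl1 include 0 in both. Ccl20 in m-ICc12 is left out because its 3 libraries labelled TNF-treated are at 0. Signs follow the labels, which conflict with the names of the deposited counts.

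Whether the difference between labels was itself different in m-ICc12 and organoids was tested by the interaction term. By edgeR 21 of 13183 genes (0.159%) passed, and 0 of the 9 members tested did. An unadjusted p under 0.05 was reached by 1 member and by 857 genes (6.5%), and DESeq2 called 0 members. The member with the lowest p was Cxcl16, with 2.63 on the log2 scale (interval 0.08 to 5.18, edgeR adjusted p 0.744), which rests on 10 and 12 counts in m-ICc12 with the untreated and TNF labels. For Cx3cl1 the interval was -0.47 to 0.79, and for Cxcl1 it was -1.06 to 2.88. The interval of Ccl2 ran from -5.99 to 0.94. Organoids held 27 counts of Ccl2 in all. For Ccl20, which had no count in m-ICc12 with the TNF label, it ran from -9.01 to 0.64.

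Between cell systems the differences were far larger, against a background in which most genes differed. Among libraries labelled untreated, 60.9% of 12962 genes differed between organoids and m-ICc12 by edgeR, 31.6% being higher and 29.3% lower in organoids. Of 9 members tested, 4 were higher and 3 lower. Ccl25 was 98.8-fold higher in organoids (log2 6.63, interval 5.98 to 7.28, edgeR adjusted p 1.53e-11), and Cx3cl1 was 2.86-fold higher (log2 1.52, interval 1.01 to 2.03, adjusted p 3.95e-05). Cxcl16 (8.68 to 46.3 CPM in organoids, 0 to 0.197 in m-ICc12) and Ccl20 (2.33 to 24.6 CPM in organoids, 0.0879 to 1.80 in m-ICc12) were also higher in organoids. Cxcl1 was 105-fold lower in organoids (log2 -6.71, interval -7.97 to -5.45), and Ccl2 and Cxcl5 were lower too. Cxcl2 (log2 -3.49, edgeR adjusted p 0.0539) and Cxcl10 (log2 -0.997, interval -3.53 to 1.54) did not pass.

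With the TNF label, 66.8% of genes differed between organoids and m-ICc12 by edgeR, 35.0% higher and 31.9% lower in organoids. Of 8 members tested, 4 were higher and 4 lower, Cxcl2 among the latter. Cxcl2 was at 0 in the organoids against 122 counts in m-ICc12, at least 10.1-fold lower. Of these, 102 lay in m-ICc12 replicate 2. The log2 difference went from -8.06 to -6.70 without that replicate (edgeR adjusted p 0.0129) and to -8.70 without replicate 1, which had no count. With no count in organoids, the data give no size for this difference beyond the bound. Cxcl2, Ccl2 and Cxcl5 were at or under the floor in every organoid library with this label. They passed the filter on low counts through m-ICc12 only, so they could only come out lower in organoids. Ccl20, with no count in m-ICc12 with this label, could likewise only come out higher in organoids. Ccl2 had 3 counts against 97, a ratio of 127 (exact counting interval 42.3 to 628).

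Against MEFs, 67.2% of 13144 genes differed from organoids labelled untreated, 34.6% higher and 32.6% lower in organoids. Of 9 members tested, 4 were higher and 4 lower. Ccl25 was 144-fold higher in organoids (log2 7.17, interval 6.73 to 7.62, edgeR adjusted p 4.12e-14), and Cx3cl1 2.55-fold higher (interval 0.84 to 1.86 on the log2 scale). Ccl20 and Cxcl16 were higher in organoids as well, while Ccl2, Ccl7, Cxcl5 and Cxcl10 were lower. Ccl7 had 1 count in organoids labelled untreated against 644 in MEFs, so it passed the filter through MEFs only and could only come out lower. The call of Cxcl5 (log2 -3.92, edgeR adjusted p 0.0264) was lost without any 1 of the MEF replicates (adjusted p 0.104, 0.0576 and 0.0521 without replicates 1, 2 and 3), with DESeq2 (0.105) and without the filter on low counts (0.0506). Set beside organoids labelled TNF-treated, 71.6% of genes differed (36.2% higher and 35.4% lower in organoids). Of 9 members, 3 were higher and 4 lower, and Ccl20 was no longer called (log2 2.23, edgeR adjusted p 0.182). Ccl2, Ccl7 and Cxcl5, among those lower, were at or under the floor in every organoid library with this label. They passed the filter through MEFs only and could only come out lower. Both comparisons share the MEF libraries.

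Between m-ICc12 and MEFs 59.3% of genes differed by edgeR among untreated-label libraries, 28.1% higher and 31.2% lower in m-ICc12. Of 9 members tested, 4 were higher and 2 lower. Cxcl1, at 0.404, 0.227 and 0.652 CPM in MEFs, was higher in m-ICc12 by 7.63 on the log2 scale (interval 6.96 to 8.29, edgeR adjusted p 3.37e-10). Cxcl2 was at 0 in MEFs and at least 39.9-fold higher in m-ICc12, and Cxcl5 was 7.01-fold higher. With no count in MEFs, Cxcl2 could only come out higher in m-ICc12, with either label. Ccl7 and Cxcl10 were lower in m-ICc12. In a fit of all 27 libraries the calls of Cxcl5 and Cxcl10 were lost (edgeR adjusted p 0.101 and 0.145). Cx3cl1 did not pass, with an interval of -0.67 to 0.26 on the log2 scale. The direction of Ccl2 depended on the label: m-ICc12 was 3.68-fold above MEFs with the untreated label (log2 1.88, edgeR adjusted p 6.26e-07) and lower by -3.34 on the log2 scale with the TNF label (adjusted p 0.00114). With the TNF label 55.6% of genes differed (26.8% higher and 28.8% lower in m-ICc12). Of 8 members tested, 2 were higher and 3 lower, and Ccl7, at 0 in m-ICc12, was at least 25.5-fold lower. Ccl7 passed the filter through MEFs only and could only come out lower. Cxcl5 was not called there (log2 1.15, edgeR adjusted p 0.244).

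**Figure D5:**
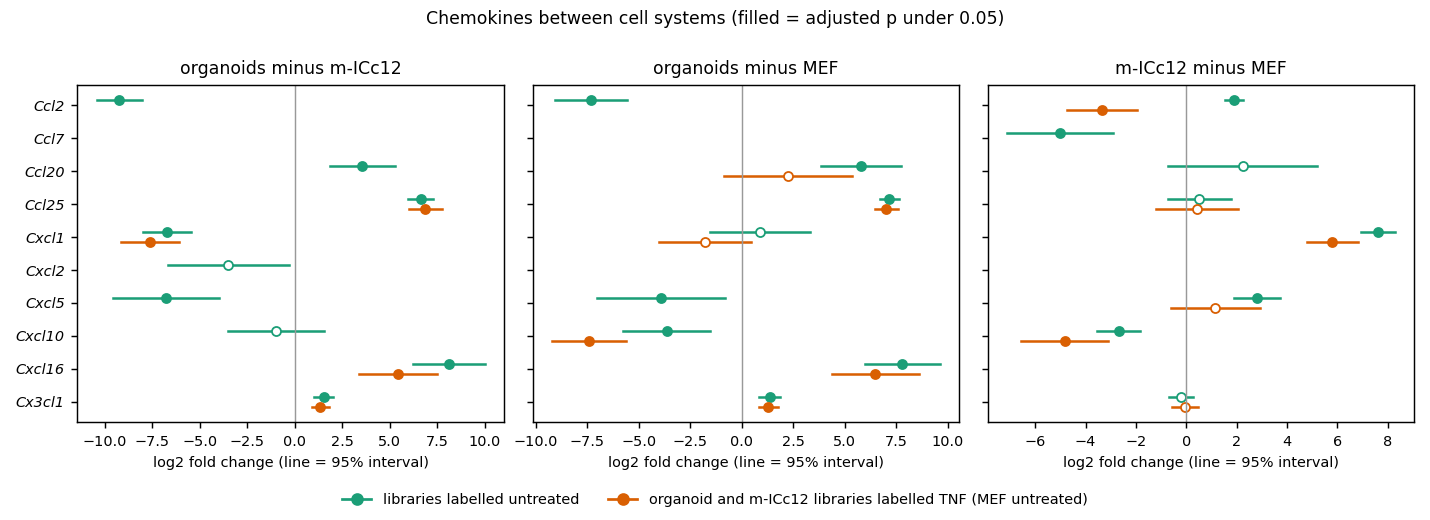
Log2 differences between cell systems for both labels, with 95% intervals, leaving out members at or under 3 counts per library in 1 of the groups. Ccl25 and Cxcl16 lie far above 0 for organoids against either system, Cxcl1 lies far below 0 against m-ICc12, and Ccl2 of m-ICc12 against MEFs lies on opposite sides of 0 for the 2 labels.

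The donor's microbiota was the other comparison in the design. Between GF organoids (3 cultures) and SPF organoids (6 cultures) labelled untreated, edgeR called 4 of 12315 genes (0.0325%). Of the 6 members tested 0 were called, 0 had an unadjusted p under 0.05 (3.99% of all genes tested had), and DESeq2 called 0. Ccl20 in libraries labelled untreated was at 10.7, 15.0 and 9.55 CPM in SR, at 2.33, 12.4 and 24.6 in SE and at 9.09, 8.63 and 9.53 in GF. The 3 GF cultures lay closer together than those of SE, and inside their range, with a log2 difference to SPF of -0.45 (interval -1.51 to 0.60). Ccl25 was at 388, 430 and 453 CPM in SR, at 335, 362 and 387 in SE, and at 321, 430 and 303 in GF, with an interval of -0.45 to 0.12. For Cx3cl1 the interval was -0.81 to 0.10 and for Cxcl16 -0.67 to 1.17.

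With the TNF label 4 of 12356 genes (0.0324%) were called by edgeR, and 3.8% had an unadjusted p under 0.05. Of the 4 members tested, 0 were called by edgeR, reached an unadjusted p under 0.05 or were called by DESeq2. The difference between labels was also compared between GF and SPF organoids. Of 12640 genes 0 (0%) were called by edgeR, 323 had an unadjusted p under 0.05 and DESeq2 called 1, while 0 of the 6 members passed in any of these 3 ways. For Ccl20 the interval was -2.56 to 2.34 on the log2 scale, and for Ccl25 -0.47 to 0.49.

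The other genes of these pathways were read from lists. Of 18 genes of the NF-κB pathway, 17 were tested in organoids, and 7 were lower with the TNF label while 0 were higher by edgeR, with a median log2 difference of -0.51 against 0 over all genes. The largest were Nfkbia (-2.66, edgeR adjusted p 6.41e-17), Nfkb2 (-1.79), Tnfaip3, a deubiquitinase that limits NF-κB signalling (-1.54), and Relb (-1.49). In m-ICc12 all 18 were tested and 5 were lower, led by Nfkbie (-2.54), Nfkbia (-2.13, edgeR adjusted p 0.000395), Relb (-1.89) and Tnfaip3 (-1.65), with a median of -0.76. Ccl20, Ccl2 and Cxcl1 thus had the direction of these genes, in libraries whose labels and table names conflict.

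Of 9 genes of the interferon axis of Cxcl10, 7 were tested in organoids and 2 were lower with the TNF label, the transcription factor gene Irf1 (-1.39, edgeR adjusted p 1.10e-05) and Ifit3 (-6.33, adjusted p 0.00441, at 1.68 against 0.0171 CPM). In m-ICc12, 8 were tested and edgeR called 0. The proteases Adam10 and Adam17 were tested in both systems and neither was called by label, at 163 and 173 CPM of Adam10 in organoids labelled untreated and TNF-treated. Of 4 genes of chemokine mRNA decay, 0 were called by label in either system.

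Of the 28 other chemokine genes listed, 27 were in the tables and 4 were tested in organoids, where 0 were called between the labels by edgeR. Ccl28, another mucosal chemokine of epithelia, averaged 93.9 CPM in organoids labelled untreated and 75.5 in those labelled TNF-treated, against 0.174 in m-ICc12 and 0.777 in MEFs, and it was higher in organoids than in either (edgeR adjusted p 4.44e-11 and 1.60e-10). Ppbp, a further neutrophil attractant, averaged 24.1 CPM in m-ICc12 and 0.617 in MEFs. Cxcl12, a stromal chemokine, averaged 111 CPM in MEFs. The receptors were all but missing: 0 of 18 conventional chemokine receptors were abundant enough to be tested in any comparison, and their summed level did not exceed 0.798 CPM in any library. The atypical receptor Ackr3, which scavenges Cxcl12, was an exception outside that list, at 24.4 CPM in m-ICc12 labelled untreated and 1.22 in organoids.

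Genes with a pattern like that of a member were looked up by Pearson's r of log2 CPM, as a description only. Across the 18 organoid libraries, which share the labels and the cultures, Ccl20 was most like Irf1 (r 0.907), Megf6 (0.898) and Tapbp (0.894), and Cxcl10 was most like Ifit3 (0.877). Cxcl16 was most like S100a11 (0.883) and Cx3cl1 most like Cyp3a25 (0.896) and Creb3l3 (0.893). Over all 27 libraries, which fall into 3 cell systems, Ccl25 was most like Agmat (0.996), Cxcl16 most like Ascl2 (0.969) and Ccl7 most like Mmp9 (0.990). Relb, of the NF-κB list, was the gene second most like Ccl20 (0.842).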

How the data were processed

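RNA-seq was analysed from the deposited count tables. The authors trimmed adapters with Trimmomatic. Single-end reads of polyA-selected libraries were aligned to GRCm38 (Ensembl release 91) with STAR 2.5.4b and counted per gene. The deposited counts were whole numbers without normalization. The strand setting of counting is not given in the sources used here. Counts were scaled by TMM and tested with edgeR 4.0.16 (R 4.3.3) by the quasi-likelihood F-test, on the libraries compared only, keeping genes that reached 10 counts in 50% or more of 1 group's libraries. P-values were adjusted by the Benjamini-Hochberg method over all genes tested. A member at or under the floor in 1 group passed the filter on low counts through the other group only, so its direction was then fixed beforehand. CPM of members used all 27 libraries, and paired log2 differences used a prior count of 2. DESeq2 1.42.0, other scaling, no filter, culture as a block, a facility covariate, 1 fit of all 27 libraries, and leaving out cultures were alternatives.

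The members, the pathway lists and the markers were chosen with earlier results of these data known. From each list at most 4 genes per comparison were named, those called with the largest difference. Libraries of an organoid culture came from the same animal, and their deviations from the group means correlated with r of 0.0821 to 0.311 (mean 0.171, other cultures -0.0200). The tests were run on counts simulated from the fitted model, with a log2 change of 1 in 200 genes well above the floor. Recovery ran from 42.5% for the interaction to 89.5% for the labels in organoids. False calls made up 2.29% to 5.83%. These figures do not cover members near the floor. Replicates of m-ICc12 and MEFs may be technical, and p-values then measure only their spread. Total counts set the precision: counting intervals cover counting error only.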

Additional observations from a re-analysis of the deposited data

Results flagged for a closer look

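In 7 of the 20 combinations of member and label in the 9 organoid cultures, 1 library stood far from the others by Dixon's criterion. Cxcl2 with the TNF label, at 0 in all 9, could not be flagged. Chance alone meets the criterion in about 1 in 20 groups of normally distributed values. The flagged groups are mostly at or near 0, so their number cannot be set against that rate. In each of the 7 cases at most 3 of the 9 libraries of the group held the member above the floor of 3 counts. Cxcl2 was at 1.90 CPM (51 counts) in the library of SR culture Z908 labelled untreated, with the next at 0.755, and Cxcl5 was at 0.896 CPM (26 counts) in that of SR culture Z909, with the next at 0.0382. Ccl2 was at 0.357 CPM (9 counts) in the library of SE culture Z913 labelled untreated, with the next at 0.157. With the TNF label, GF culture Z917 stood apart for Cxcl1, at 0.611 CPM (13 counts, next 0.169), and for Cxcl10, at 0.517 CPM (11 counts, next 0.0749). Ccl7 stood apart through 1 count, at 0.0443 CPM in GF culture Z919 labelled untreated and at 0.0319 CPM in SE culture Z912 labelled TNF-treated. Ccl20, Ccl25, Cxcl16 and Cx3cl1, which every one of the 9 organoid libraries labelled untreated held above the floor, had no such library.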

How the results depend on the processing

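In organoids, members called between the labels numbered 2 with DESeq2, 3 with all 27 libraries in 1 fit and 2 with culture as a replicate block, against 1, and 1 to 3 with each culture left out. In m-ICc12 the number was 1 with all libraries in 1 fit, against 2, and 2 with each culture left out. The m-ICc12 libraries share only a number (r of -0.00664 to 0.0925), and the block gave 2 members and 6 genes there. Genes called in organoids went from 168 to 218 with DESeq2, 139 with all libraries in 1 fit and 397 with the block. In m-ICc12 they went from 13 to 46 with DESeq2, 30 without the filter, 28 with all libraries in 1 fit and 93 without replicate 2. For the interaction they went from 21 to 74 with DESeq2, 10 with all libraries and 103 with the block. Between GF and SPF they went from 4 to 21 with DESeq2 and 29 with all libraries for the untreated label, and to 10 with DESeq2 for the TNF label. In organoids Cxcl10 was called by DESeq2 (adjusted p 0.0389), and Cxcl1 and Cxcl10 in the edgeR fit of all libraries (adjusted p 0.00573 and 0.0254). The edgeR fit of all libraries also called Cxcl2 between organoids and m-ICc12 with the untreated label (adjusted p 0.0113) and Cxcl1 between organoids and MEFs with the TNF label (0.00831), and Cxcl5 was called between m-ICc12 and MEFs with the TNF label without m-ICc12 replicate 1 (0.0447). Directions turned only for values not called: the interaction of Ccl25 was 0.001 with DESeq2, and that of Cxcl5 was -1.09 with all libraries and -2.25 with the block. With 1 culture left out, ranges crossing 0 were, on the log2 scale: between labels, Cx3cl1 in organoids from -0.086 to 0.021 and Ccl25 in m-ICc12 from -1.31 to 0.49. In the interaction they were Ccl25 from -1.12 to 0.29, Cxcl5 from -3.51 to 0.98 and Cxcl10 from -1.08 to 2.54. For m-ICc12 against MEFs with the TNF label they were Ccl25 from -0.43 to 0.83 and Cx3cl1 from -0.17 to 0.087. For GF against SPF they were Cxcl1 from -0.48 to 1.07, Cxcl10 from -0.34 to 1.18 and Cxcl16 from -0.078 to 0.64 with the untreated label, and Ccl20 from -2.02 to 0.07, Cxcl16 from -1.19 to 0.46 and Cx3cl1 from -0.33 to 0.16 with the TNF label. In the GF response they were Ccl20 from -1.57 to 0.46, Ccl25 from -0.088 to 0.072 and Cxcl16 from -1.11 to 0.16. Of the values with a culture left out, 496 kept direction and call and 35 changed direction, and of the other alternatives 385 and 3. Called differences between systems that rest on a few counts in 1 of them moved by over 1.5 times in some cases, as for Cxcl16 in organoids against m-ICc12 labelled untreated, from 8.10 to 10.36 on the log2 scale without m-ICc12 replicate 2, and for Ccl20 there, from 3.56 to 4.38 without replicate 3. The cause of these changes was not tested. Depth limits Ccl2, Ccl7, Cxcl2 and Cxcl5 in organoids and Cxcl16 outside them, where a difference could not be tested or rests on few counts.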
